A study of Homo sapiens with 8 samples.

Results

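The genes described here are 9 targets of the transcription factor p53: CDKN1A, MDM2, TP53INP1, BTG2, ZMAT3, FAS, RRM2B, FDXR and XPC. This list and the other gene lists below were chosen with earlier results of these data known. Their counts beside all genes are therefore descriptions only. Each of the genes described here was followed on every Affymetrix probe set that the platform annotation pairs with that gene symbol alone. This gave 26 probe sets for 7 of the 9 genes, out of 54675 probe sets and 19775 named genes on the array. BTG2, an antiproliferative gene, and FDXR, a mitochondrial reductase, were paired with no probe set in that annotation and were not analysed here. The same holds for BRAF.

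All samples were A375 cells, a human melanoma line with an activating BRAF mutation. RNA came from whole cultures of cells transfected with nontargeting siRNA (siCont), siRNA against BRAF (siBRAF) or siRNA against ATF4 (siATF4). On 5 arrays the cells were kept in normal medium (siCont, siBRAF, siATF4) or in glutamine-free medium for 18 h (siCont, siBRAF), always with serum. On the other 3 they received the solvent DMSO (siCont) or 10 uM of the BRAF inhibitor vemurafenib (siCont, siATF4) for 4 h. Each condition had 1 array, so no difference below has a replicate check or a p-value, and every comparison is one of 2 arrays. A higher level in all cells and a high level in a share of the cells cannot be told apart in such cultures.

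p53 is held at a low level in unstressed cells because the ubiquitin ligase MDM2, itself a p53 target, marks it for degradation. When DNA damage, nucleotide shortage or abnormal growth signals relieve this block, p53 binds paired sites in the DNA and switches on genes that stop the cell cycle, repair DNA, supply nucleotides or prepare cell death. CDKN1A encodes p21, an inhibitor of cyclin-dependent kinases and the best known arm of the arrest.

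The DNA near the starts of some of these genes was searched for the letters of a p53 site. RefSeq promoter windows (GRCh38.p14, 250 bases before to 50 after a start) were matched for 5 measured genes, with 11 windows in all: CDKN1A, MDM2, ZMAT3, FAS and XPC. The other measured genes, TP53INP1 and RRM2B, were not searched. The capitals mark the p53 decamer, the 10-base unit of a paired p53 site, in MDM2 and FAS, and the GC box GGGCGG in CDKN1A. The FAS match is exact, while those in MDM2 were allowed 1 mismatch outside the 4-base core, a search added after the exact one.
CDKN1A (chr6:36678590-36678699, plus strand): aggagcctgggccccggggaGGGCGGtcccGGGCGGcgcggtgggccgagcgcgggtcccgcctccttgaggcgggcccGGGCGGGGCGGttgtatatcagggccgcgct
MDM2 (chr12:68808903-68809000, plus strand): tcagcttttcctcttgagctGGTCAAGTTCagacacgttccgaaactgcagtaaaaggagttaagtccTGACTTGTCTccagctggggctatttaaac
FAS (chr10:88991289-88991338, plus strand): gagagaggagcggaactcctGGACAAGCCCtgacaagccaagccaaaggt

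The MDM2 stretch ends 17 bases before the third of 4 RefSeq starts and the FAS stretch 93 bases before the last of 3, both downstream of the first start. The first introns of MDM2 and FAS are textbook places of p53 binding. An exact p53 decamer was found in 6.6% of all 35116 promoter windows, and one with up to 1 mismatch in 32.6%. The exact decamer was in no other of the 11 windows, and the windows of CDKN1A, ZMAT3 and XPC held none with 1 mismatch either, which says only that these letters are not in these windows. CDKN1A held 4 GC boxes, of which the last pair overlaps by a base. GGGCGG was found in 45.0% of all windows, CCAAT in 34.6% (in those of MDM2 and ZMAT3) and TATAAA in 11.5% (in none of the 11), with both strands searched. A match describes the sequence and is not a measured binding site.

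The 5 medium arrays had median intensities of 14.8 to 15.5 and the 3 DMSO and vemurafenib arrays 36.4 to 36.9, so differences were taken only within each set. All values are authors' intensities, and all differences are differences of log2(intensity + 1). A gene is described by its brightest probe set and is called apart at 2-fold or more. The knockdown check, ATF4 itself, stood at -1.76 with siATF4 in normal medium and -2.59 in vemurafenib. Of the melanocyte markers, MITF, SOX10 and S100B were well above the array median on all 8 arrays. TYR lay at or just above it, PMEL, MLANA and TYRP1 lay near or below it, and DCT had no probe set. MITF and S100B also had their 2 highest medium values on the siBRAF arrays, and their part in the results was not tested. The leukocyte marker PTPRC and the epithelial marker EPCAM were below the median on all 8 arrays. The endothelial PECAM1 (24.7 to 61.2) and the keratinocyte KRT5 (18.4 to 44.6) and KRT14 (90.1 to 572.9) were above it. As a measure of RNA integrity, the 3' minus 5' log2 signal of the actin control was 0.16 to 0.28 on the medium arrays, highest on the siCont glutamine-free array, and -0.18 to 0.00 on the other 3; its part in the results was not tested.

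**Figure D1:**
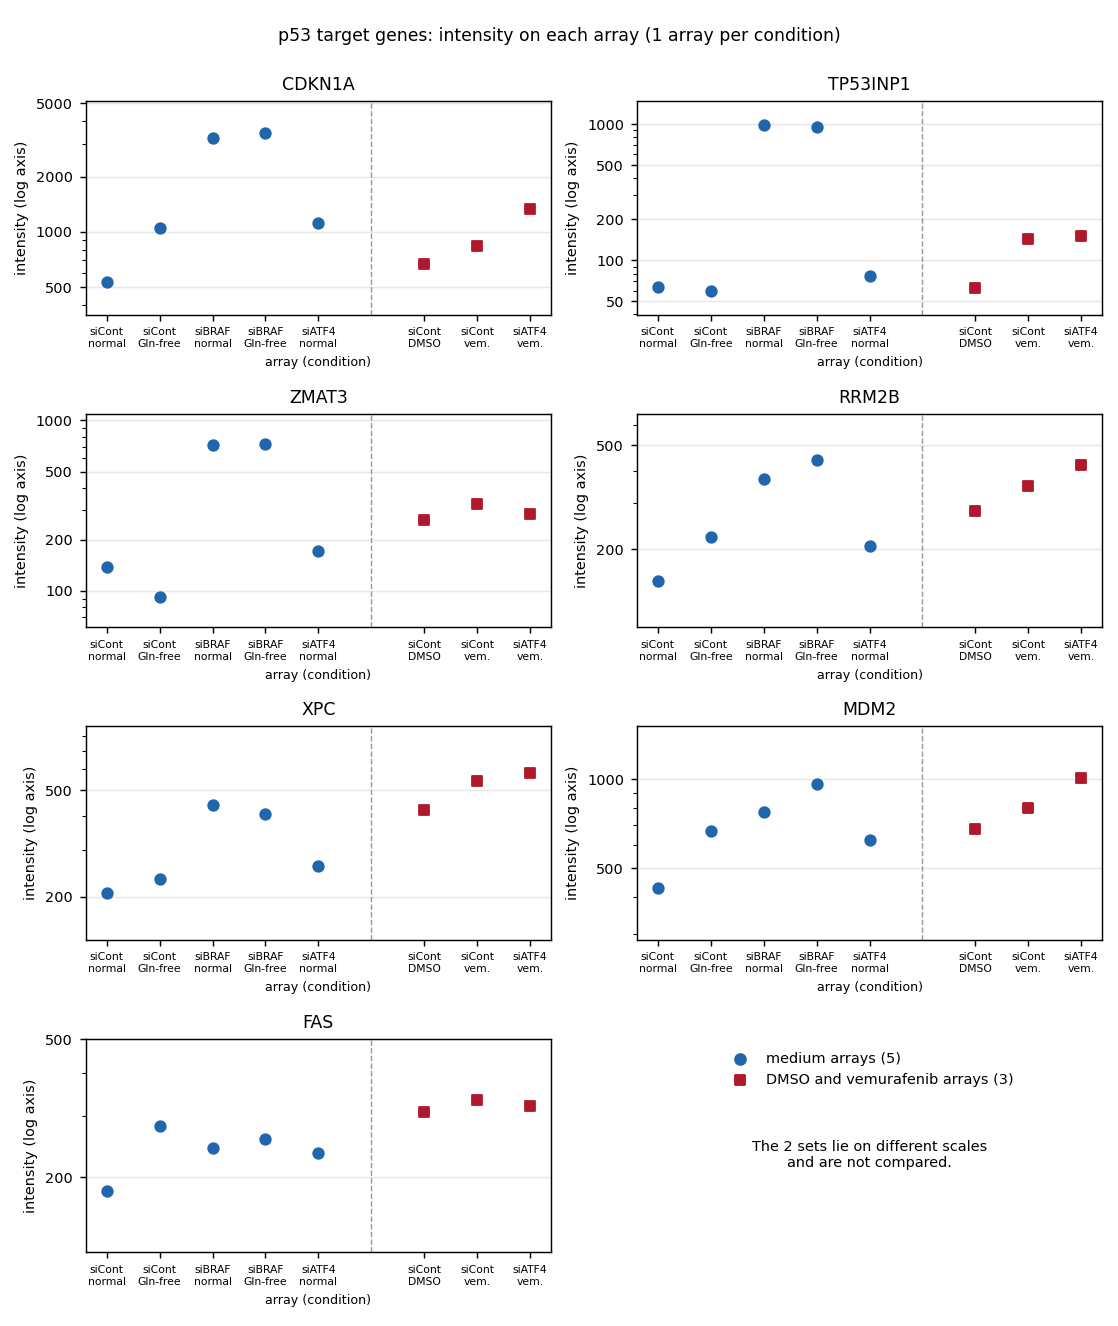
Intensity (log axis) of the probe set that represents each of the 7 measured p53 targets on each array; circles are the 5 medium arrays and squares the 3 DMSO and vemurafenib arrays, 1 array per point. For all genes but FAS both siBRAF arrays stand above the other 3 medium arrays, from 1.16-fold for MDM2 to 12.29-fold for TP53INP1.

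BRAF knockdown went with the largest differences in these genes. In normal medium all 7 were higher with siBRAF than with siCont, 5 of them by 2-fold or more, and their median log2 difference was 1.30. The background is the 13334 genes that passed the filter on dim values: 7.21% of them reached 2-fold upwards, 7.66% downwards, and the median was -0.01. In glutamine-free medium 3 of the 7 reached 2-fold upwards and 0 downwards, and their median was 0.98. Of 13483 genes 12.9% did so upwards and 10.9% downwards, and their median was 0.02. These 2 comparisons have no array in common.

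The arrest genes come first. CDKN1A read 3224.1 with siBRAF in normal medium and 3431.7 in glutamine-free medium, against 531.7 and 1050.0 with siCont and 1118.4 with siATF4. Both siBRAF arrays thus lay at least 2.88-fold above the other 3. Because the siCont level was higher without glutamine, the siBRAF difference was 2.60 in normal medium (6.05-fold) and 1.71 without glutamine (3.27-fold). Only 113 of the 13334 genes had a larger positive difference in normal medium.

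TP53INP1, a nuclear stress protein that promotes p53 activity and autophagy, differed most on its brightest probe set. It read 63.5 and 59.7 on the siCont arrays and 77.2 with siATF4, but 987.1 and 960.2 on the siBRAF arrays. The differences of 3.94 and 3.99 correspond to 15.31-fold and 15.85-fold. Only 25 genes exceeded it in normal medium and 51 without glutamine. A dimmer TP53INP1 probe set also read higher with siBRAF, at 46.5 against 17.8 in normal medium (1.34) and 29.7 against 17.2 without glutamine (0.75), while the third lay below the array median on all 8 arrays. With the mean of all its probe sets TP53INP1 stood at 1.81 and 1.60, below CDKN1A and ZMAT3 in both media.

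ZMAT3, a zinc finger protein that binds RNA, had nearly equal values on the 2 siBRAF arrays. Its brightest probe set read 718.5 and 730.3 with siBRAF, against 138.5, 91.8 and 170.7 on the siCont normal, siCont glutamine-free and siATF4 arrays. The differences were 2.37 (5.16-fold) in normal and 2.98 (7.88-fold) in glutamine-free medium. All 5 ZMAT3 probe sets were at least 2-fold higher in both, with ranges of 1.94 to 2.40 and 2.40 to 3.97.

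The DNA repair and nucleotide genes differed less. RRM2B encodes the p53-inducible small subunit of ribonucleotide reductase, which makes deoxynucleotides outside S phase. It read 371.6 and 440.9 with siBRAF against 150.5 and 223.5 with siCont, for differences of 1.30 and 0.98, and 206.1 with siATF4. XPC, the damage sensor that starts nucleotide excision repair, read 440.0 and 406.7 with siBRAF against 206.9 and 233.7 with siCont, for differences of 1.08 and 0.80, and 260.1 with siATF4. Both genes had their 2 highest medium values on the siBRAF arrays, but in glutamine-free medium both differences stayed under 2-fold.

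MDM2 and FAS, the feedback ligase and the death receptor, differed least on their brightest probe sets. MDM2 read 773.0 and 960.7 with siBRAF against 429.8 and 667.0 with siCont, for differences of 0.85 and 0.53, and 621.3 with siATF4. FAS read 243.2 and 257.6 against 182.3 and 280.9, for differences of 0.41 and -0.12, with 234.8 on the siATF4 array. FAS was the only measured member whose highest medium value was not on an siBRAF array but on the siCont glutamine-free one. For 6 of the 7 genes both siBRAF arrays lay above the other 3, a pattern seen in 27.9% of 13764 genes and counted after the values were seen.

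**Figure D2:**
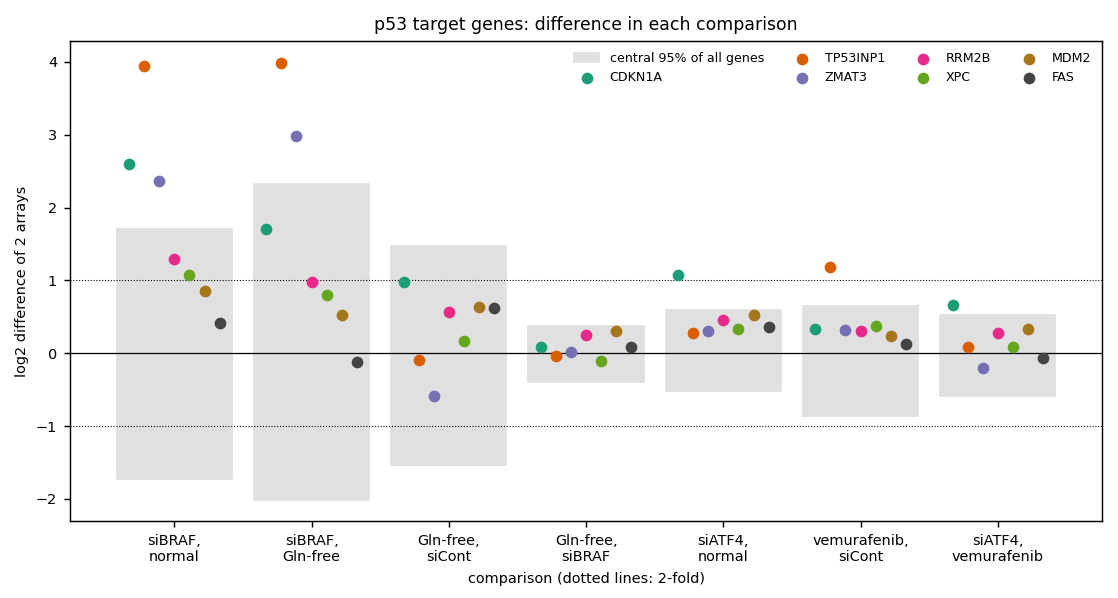
Log2 difference of 2 arrays for each of the 7 measured p53 targets (colours) in the 7 comparisons; grey bands hold the central 95% of all genes that passed the dim filter and dotted lines mark 2-fold. With siBRAF TP53INP1 and ZMAT3 lie above the band in both media, and CDKN1A in normal medium only. With siATF4 CDKN1A alone lies above it, both in normal medium and in vemurafenib. With vemurafenib against DMSO TP53INP1 alone does. In the glutamine comparisons no member lies outside the band.

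MDM2 depended on the probe set used. It has 10, of which 2 lay below the array median on all 8 arrays. In normal medium the other 8 were all higher with siBRAF, 5 of them by 2-fold or more, from 0.43 to 2.84. Probe sets with the suffix _s_at or _x_at are called shared here. The highest of the 8, which is not called shared, read 134.2 and 144.1 on the siBRAF arrays. It read 17.9 and 14.1 on the siCont arrays and 45.1 with siATF4. Its differences were 2.84 and 3.26, the latter from an siCont value below the array median, so that its size depends on background. The other 7 probe sets lay between -0.15 and 0.92 in glutamine-free medium. FAS has 4 probe sets above the dim limit, all called shared. In normal medium 1 of them was lower with siBRAF (-0.35) while 3 were higher (0.41 to 0.50). In glutamine-free medium all 4 were lower, from -0.49 to -0.12. CDKN1A, RRM2B and XPC have 1 probe set each, so no second reading exists for them.

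**Figure D3:**
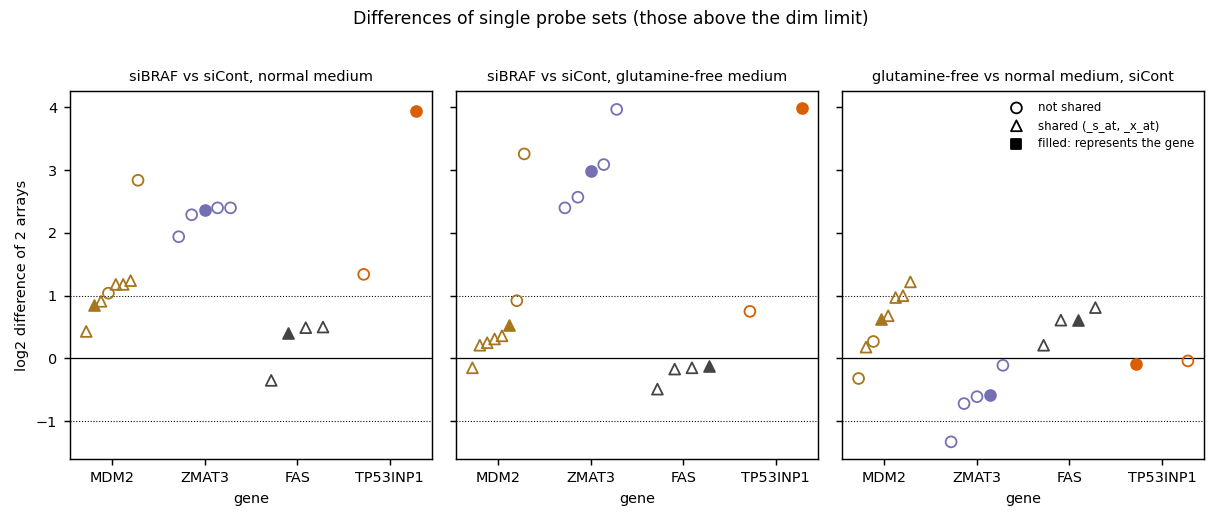
Log2 difference of 2 arrays for each probe set above the dim limit of MDM2, ZMAT3, FAS and TP53INP1 in 3 comparisons. Triangles are probe sets called shared by the suffix _s_at or _x_at, circles all others, and filled symbols represent the gene. The 5 ZMAT3 probe sets lie between 1.94 and 2.40 with siBRAF in normal medium, whereas those of MDM2 run from 0.43 to 2.84.

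Glutamine withdrawal in siCont cells split the members. CDKN1A went from 531.7 to 1050.0, a difference of 0.98 (1.97-fold), just short of 2-fold. MDM2 (0.63), FAS (0.62) and RRM2B (0.57) were also higher, XPC stood at 0.17 and TP53INP1 at -0.09, and ZMAT3 was lower at -0.59. None of the 7 was 2-fold apart, whereas 2-fold or higher values were found for 5.8% of 13340 genes and 2-fold or lower ones for 7.26%. The member median was 0.57 against -0.05 for all genes.

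The directions in siCont cells held across probe sets for ZMAT3 and FAS but not for MDM2. All 5 ZMAT3 probe sets were lower without glutamine, from -1.33 to -0.11, and all 4 of FAS were higher, from 0.21 to 0.81. Of 8 MDM2 probe sets 7 were higher, 2 of them by 2-fold or more with a largest difference of 1.22, while the one highest with siBRAF stood at -0.32.

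Between the 2 media the siBRAF arrays differed little. CDKN1A was at 0.09, MDM2 at 0.31, RRM2B at 0.25, FAS at 0.08, ZMAT3 at 0.02, TP53INP1 at -0.04 and XPC at -0.11. No member was 2-fold apart, and in this pair of arrays 0.061% of 13119 genes reached 2-fold upwards and 0.0762% downwards. The response in siBRAF minus that in siCont cells was most negative for CDKN1A (-0.89) and FAS (-0.54) and most positive for ZMAT3 (0.61). For MDM2 it was -0.32, but 0.42 on the brightest of its probe sets not called shared, which is brightest only through its siBRAF values. The other of these above the dim limit had glutamine differences of 0.27 in siCont and 0.15 in siBRAF cells. None of the 7 gaps reached 2-fold; 7.61% of 13697 genes had such a gap upwards and 5.72% downwards. Each gap uses 4 single arrays and has no test.

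ATF4 knockdown went with higher CDKN1A. In normal medium CDKN1A read 1118.4 with siATF4 against 531.7 with siCont, a difference of 1.07 (2.10-fold), and only 51 of 13156 genes had a larger one. The other 6 lay between 0.28 (TP53INP1) and 0.53 (MDM2), so all 7 were higher, with a median of 0.36 against 0.03 over all genes. CDKN1A was the only member past 2-fold, as were 0.486% of all genes upwards and 0.403% downwards. The MDM2 probe set that differed most with siBRAF was again the highest of that gene, at 1.29. This comparison shares its siCont array with those of siBRAF and of glutamine withdrawal in normal medium.

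Under vemurafenib CDKN1A read 1324.9 with siATF4 against 837.6 with siCont, a difference of 0.66 (1.58-fold). MDM2 read 1007.2 against 799.3 (0.33) and RRM2B 421.3 against 347.9 (0.28). TP53INP1 and XPC were both at 0.09, FAS at -0.06 and ZMAT3 at -0.20, with all 5 ZMAT3 probe sets below 0. No member was 2-fold apart; 0.212% of 13195 genes were so upwards and 0.728% downwards. CDKN1A was thus higher on the siATF4 array of both settings, which have no array in common.

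Vemurafenib for 4 h went with a higher level of TP53INP1 and small differences elsewhere. TP53INP1 read 142.4 in vemurafenib against 62.2 in DMSO, a difference of 1.18 (2.27-fold), and 151.5 with siATF4 in vemurafenib. Only 76 of 13181 genes had a larger positive difference. Its dimmer probe set read 38.5 against 38.8 (-0.01), near the array median. XPC was at 0.37 (544.6 against 421.1), CDKN1A at 0.33 (837.6 against 666.1), ZMAT3 at 0.32, RRM2B at 0.31, MDM2 at 0.24 and FAS at 0.12. Thus 1 of the 7 reached 2-fold upwards, against 0.88% of all genes upwards and 1.93% downwards. The member median was 0.32 against 0.03. The siCont vemurafenib array also enters the siATF4 comparison under the drug.

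Other p53 targets differed in both directions. From a list of 36 further targets 35 were measured. With siBRAF in normal medium 7.21% of all genes reached 2-fold upwards and 7.66% downwards. Of the 33 listed targets that passed the filter 13 did so upwards and 1 downwards, with a median of 0.80. The largest differences were those of the antiviral gene TRIM22 (5.03, from a siCont value of 6.0, below the array median), SESN2 (2.15), SESN1 (1.59) and PMAIP1 (-2.12). Sestrins restrain growth signalling, and PMAIP1 encodes the death protein NOXA. In glutamine-free medium 13 of 34 reached 2-fold upwards and 6 downwards (median 0.56), beside 12.9% and 10.9% of all genes. TRIM22 stood at 5.22 (from a siCont value of 4.4, below the array median), PMAIP1 at -4.31, the stress hormone GDF15 at -3.82 and the arrest gene GADD45A at -2.53.

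Glutamine withdrawal in siCont cells put 7 of 32 past 2-fold upwards and 3 downwards, with a median of 0.31. Of all genes 5.8% were so upwards and 7.26% downwards. The listed targets were led by SESN2 (3.90, from 50.3 to 764.1), GDF15 (3.74, from 40.8 to 556.0), GADD45A (3.29) and PMAIP1 (2.05). SESN2, GDF15, GADD45A and PMAIP1 are also known targets of ATF4. A part of ATF4 in these differences was not tested, as no siATF4 array was kept in glutamine-free medium. In siBRAF cells none of 34 was 2-fold apart between the media, beside 0.061% of all genes upwards and 0.0762% downwards. The siCont glutamine-free array enters both the siBRAF comparison without glutamine and the glutamine comparison in siCont cells. With siATF4 in normal medium GDF15 (2.21) and TRIM22 (1.26) were the 2 of 33 at least 2-fold higher, beside 0.486% of all genes. TRIM22 read 15.9 with siATF4, near the array median, and 6.0 with siCont, below it. With siATF4 in vemurafenib PMAIP1 (-1.66) was the 1 of 33 at least 2-fold lower, beside 0.728% of all genes. With vemurafenib SESN2 (1.58) passed 2-fold upwards and the exonuclease gene AEN (-1.26) downwards, beside 0.88% and 1.93% of all genes.

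Of 15 genes that control p53, 13 were measured. MDM4, the partner of MDM2 that blocks p53, read 821.6 without and 263.1 with glutamine in siCont cells (1.64), but 206.9 and 212.2 in siBRAF cells. CDKN2A, whose locus also encodes an inhibitor of MDM2, was at 1.42 in the same siCont comparison, from 25.9 to 70.8. These were the 2 of 13 that were at least 2-fold higher, beside 5.8% of all genes. With siBRAF the checkpoint kinase CHEK1 was lower in both media (-1.98 and -1.62), while MDM4 stood at -0.31 with and -1.98 without glutamine and CDKN2A at 0.19 and -1.35. None of the 13 was 2-fold apart with siATF4 or vemurafenib, where at most 1.93% of all genes were so in either direction.

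The proteins that work with the members gave a contrast within ribonucleotide reductase. RRM2B was higher with siBRAF, whereas the S phase small subunit RRM2 read 361.7 against 2292.0 in normal medium (-2.66) and 349.1 against 1281.2 without glutamine (-1.87). The large subunit RRM1, which pairs with either, was at -2.45 and -1.95. Among the partners of p21, the kinase CDK2 was at -1.77 and -1.76. Cyclin CCNE2 read 232.7 and 24.4 with siCont and 46.4 and 51.8 with siBRAF, each in normal then glutamine-free medium, so that its siBRAF difference was -2.30 and then 1.06. The replication clamp PCNA also differed in direction, with 1895.2 and 567.8 against 1060.3 and 1138.0. The XPC partners RAD23B (-0.73 and -0.62) and CETN2 (0.26 and 0.97), the FAS adaptor FADD (-0.21 and 0.39) and its protease CASP8 (0.15 and 0.00) stayed under 2-fold. The FAS ligand gene FASLG lay below the array median on all 8 arrays.

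Cell cycle genes that p21 is known to lower through RB and the DREAM complex were followed as a list of 12. With siBRAF in normal medium 12 of 12 were at least 2-fold lower, with a median of -2.63, beside 7.66% of all genes. The checkpoint kinase BUB1 (-3.38), FOXM1 (-2.88), CCNB1 (-2.86) and CCNA2 (-2.73) led. Without glutamine all 12 were lower with siBRAF, 8 of them by 2-fold or more (median -1.28), beside 10.9% of all genes. In siCont cells 7 of 12 were at least 2-fold lower without glutamine than with it (median -1.24), beside 7.26% of all genes. With siATF4 in normal medium none of the 12 was 2-fold apart, beside 0.486% of all genes upwards and 0.403% downwards. The list median was 0.10. CDKN1A was at 1.07 there, and its part in the differences of the list was not tested in any comparison. In vemurafenib the siATF4 difference was negative for all 12, from -0.74 to -0.14, all under 2-fold. Their median was -0.39, against 0.032 over all genes. The central band of all genes, drawn in grey above, ran from -0.59 to 0.53 in this comparison. Of the 12 only CCNA2 (-0.74) lay outside it. Vemurafenib against DMSO in siCont cells gave 9 positive and 3 negative differences, from -0.26 to 0.53, with a median of 0.08. Over all genes the median was 0.025 there. The grey band ran from -0.86 to 0.65, and all 12 lay inside it.

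**Figure D4:**
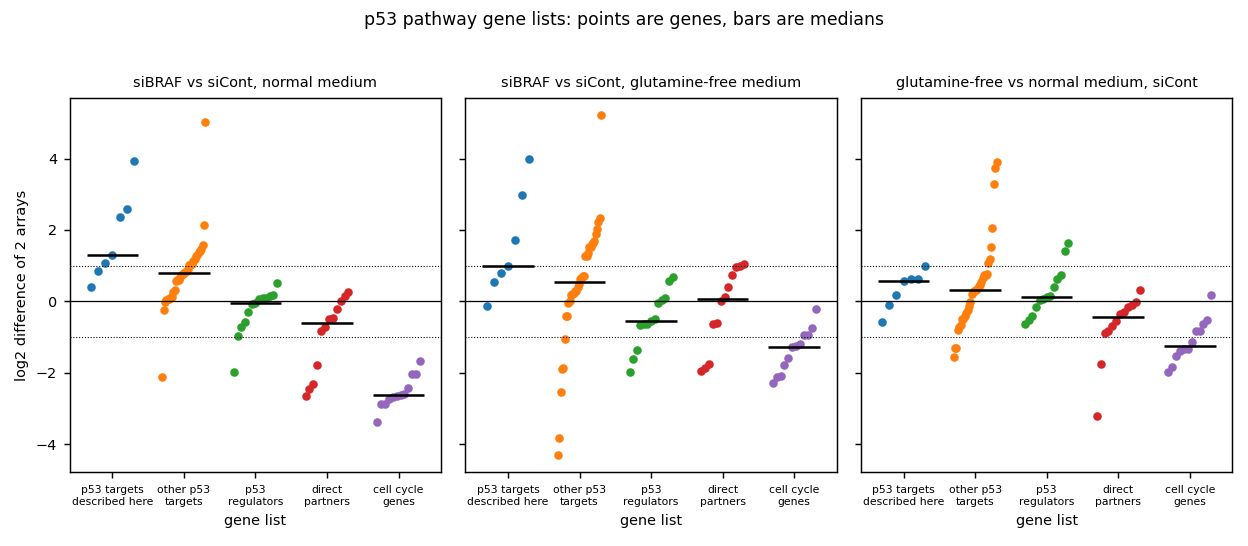
Log2 difference of 2 arrays for the genes of 5 lists in 3 comparisons; each point is a gene that passed the dim filter, bars are list medians and dotted lines mark 2-fold. The 12 cell cycle genes all lie below -1 with siBRAF in normal medium, where the p53 targets described here have a median of 1.30 and the other p53 targets one of 0.80.

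Some members lay close together and others far apart. Distance was taken as the root mean square gap over 6 log2 differences: the 4 treated medium arrays against siCont in normal medium, and the 2 vemurafenib arrays against DMSO. MDM2 was nearest to RRM2B and to XPC (0.25 each), and RRM2B and XPC were 0.31 apart. TP53INP1 and FAS were farthest apart at 2.12. MDM2 enters by its brightest probe set, and genes whose differences are all small lie close together by this measure. Among 14222 genes those most like CDKN1A were the histone gene H2BC5 (0.29), the protease gene MMP19 (0.30), the linker histone gene H1-2 (0.31), the collagen gene COL5A3 (0.33) and XG (0.35). Those most like TP53INP1 were COL21A1 (0.37), EGF (0.43), DACT1 (0.45), SCUBE3 (0.46) and CDH10 (0.47). The differences share their control arrays, so the distances describe these 8 arrays only.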

How the data were processed

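The authors deposited intensities on a linear scale for 54675 probe sets on 8 arrays, made with the RMA method per the submitters' processing notes; the version is not given in the sources used here. The platform annotation names 1 gene for 41091 probe sets, several for 1801 and none for 11721; 62 are controls. Symbols were updated by gene ID to RefSeq. The 2 sets of arrays differ in scale, so differences were taken within a set, as log2(intensity + 1), which understates the change of dim genes. The brightest probe set by mean of 8 arrays stood for a gene. Genes below the array median on both arrays of a comparison were left out of it. With 1 array per condition no test was run, and 2-fold was the threshold. The script for calls was tested on simulated data. All measured members were named; of each other list, at most 4 genes past 2-fold per comparison, with partners always allowed. The members and lists were chosen with earlier results of these data known. Python 3.11.15, pandas 2.3.3 and numpy 2.4.6 were used.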

Additional observations from a re-analysis of the deposited data

Results flagged for a closer look

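Some member differences ran in opposite directions in 2 backgrounds, each on single arrays, and none of these contrasts was tested. Glutamine-free medium gave ZMAT3 -0.59 in siCont and 0.02 in siBRAF cells, a gap of 0.61. The 0.02 turned to -0.03 after quantile normalization, so that both were then negative. The same medium gave XPC 0.17 and -0.11, a gap of -0.29. BRAF knockdown gave FAS 0.41 in normal and -0.12 in glutamine-free medium, a gap of -0.54. ATF4 knockdown gave ZMAT3 0.30 in normal medium and -0.20 in vemurafenib (-0.50), and FAS 0.36 and -0.06 (-0.42). All of these differences are under 2-fold.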

How the results depend on the processing

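Of the 7 alternatives, the first were an added constant of 16, no dim filter, a filter at the 75th percentile and the mean of all probe sets. The others were only probe sets not called shared, quantile normalization within the set and median centring within the set. Of 374 member differences recomputed, 368 stayed on their side of 2-fold, 5 passed it and 1 fell short. Many of the 368 could not change. The settings without a dim filter (56 values) and with the 75th percentile filter (54) alter no difference, only which genes pass. The mean of all probe sets equals the main value for CDKN1A, RRM2B and XPC. So does the value without shared probe sets for TP53INP1, ZMAT3, RRM2B and XPC. With median centring, glutamine withdrawal in siCont cells had 1 member at least 2-fold apart in place of 0 (CDKN1A, 1.01). With the mean of all probe sets, vemurafenib had 0 in place of 1, since TP53INP1 stood at 0.40. Without shared probe sets MDM2 was at 2.84 and 3.26 with siBRAF and 1.29 with siATF4 in normal medium. Its glutamine response in siCont cells turned from 0.63 to -0.32. These MDM2 values come from 1 probe set, the brightest of those not called shared only through its siBRAF values. The other of these above the dim limit stood at 1.04 and 0.92 with siBRAF and 0.55 with siATF4. Its glutamine response in siCont cells was 0.27. CDKN1A has only a probe set called shared. RRM2B with siBRAF in glutamine-free medium was at 1.02 after quantile normalization. In all 6 values changed sign, none of them past 2-fold. They include that MDM2 response, its gap between siBRAF and siCont cells (-0.32 to 0.42), the same gap of TP53INP1 (0.05 to -0.21 and -0.05), and ZMAT3 and FAS with glutamine withdrawal in siBRAF cells (-0.03 each). With the mean of all probe sets TP53INP1 with siBRAF stood at 1.81 and 1.60 in the 2 media, no longer the highest member. No paired analysis was possible because each condition has 1 array. Precision is limited by the single arrays and, for dim probe sets, by background.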
